A study of Mus musculus with 9 samples.

Results

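The genes described here encode 41 receptors, or subunits of receptors, for interleukins, colony-stimulating factors and interferons, out of 20661 protein-coding genes. They were listed by name, by what they encode. Open chromatin was read as deposited ATAC-seq peaks, which mark DNA that the Tn5 transposase could reach. Overlapping peaks (1 bp or more) of the 9 deposited lists were joined into regions, and the 95786 regions with a peak in 2 or more libraries were analysed. A region was given to the protein-coding gene that holds its midpoint, or else to the gene with the nearest end within 100 kb. By this rule 40 of the 41 genes received 311 regions, and Il17rb received 0. Of the 311 regions, 152 lay inside the gene and 159 outside it, 40 lay within 1 kb of a gene end, and their median width was 397 bp against 394 bp over all regions.

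The cells were long-term haematopoietic stem cells (LT-HSCs), the self-renewing cells at the top of blood formation, and multipotent progenitors (MPPs), their proliferating descendants, from bone marrow of C57BL/6 mice. Cells lacking both retinoid X receptors named in the labels, RXRα and RXRβ (KO), were set beside wild-type cells (WT). Retinoid X receptors are nuclear receptors that bind DNA with partners such as the retinoic acid receptors. There were 3 LT-HSC KO libraries, numbered 1, 2 and 4, and 2 LT-HSC WT libraries, numbered 2 and 3, and MPPs of each genotype had libraries 1 and 2. Lineage-negative cells of pooled animals were enriched and then sorted by flow cytometry, per the labels. The deleted segments, the driver of the deletion, and the ages of the mice were not found in the sources at hand. The labels leave unsaid whether replicates are separate pools of animals, and every p-value therefore reflects spread among libraries that could be purely technical. In bulk peaks, fewer cells of a type with an open region and less opening per cell cannot be told apart.

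Cytokine receptors are assembled from shared and private chains. The common gamma chain, the common beta chain and gp130 each serve several ligands, and most of these receptors signal through JAK kinases and STAT factors. The IL-1 and IL-17 families act through adaptors that lead to NF-κB, and Csf1r is itself a tyrosine kinase. In blood formation such receptors relay growth, lineage and inflammatory signals to stem and progenitor cells.

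The libraries differed in length, and LT-HSC KO 4 stood apart from the other LT-HSC KO libraries. LT-HSC lists held 22690 to 71586 peaks and MPP lists 78189 to 86353, so cell type and list length moved together. Over the 13908 regions held by all 9 libraries, the rank of peaks in LT-HSC KO 4 correlated with LT-HSC WT 2 at 0.873 and with LT-HSC WT 3 at 0.772, but with its own group members KO 1 and KO 2 at 0.541 and 0.627. LT-HSC KO 1 and KO 2 correlated with each other at 0.843 and with the LT-HSC WT libraries at 0.536 to 0.605. The WT libraries correlated with MPP libraries at 0.659 to 0.774, above their values with KO 1 and KO 2. Pairs of MPP libraries correlated at 0.961 to 0.979. Results that rest on LT-HSC KO 4 are given with and without it. Of the regions of 6 LT-HSC markers, 12 of 93 were held by all 9 libraries (Meis1 5, Mecom 3, and Procr, Slamf1, Hlf and Fgd5 1 each), and of 4 MPP markers 8 of 52 (Kit 3, Cd34 3, Flt3 2 and Cd48 0). Markers of mature cells were also called in part, as given below beside the result they move with.

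Sequences at the starts of 6 receptor genes are shown first, ahead of the presence and rank of those starts. Each is the 250 bases before a RefSeq transcript start (GRCm38.p6, the primary assembly of mm10), 5′ to 3′ on the gene's own strand. Such sequences were available for 33 of the 41 genes. With full lists, Ifngr1, Ifnar1 and Il12rb2 are the genes whose start lay in a region called by one of the tests below. In each case this was the comparison of genotypes in LT-HSCs without LT-HSC KO 4. With all 5 LT-HSC libraries none of the 3 was called. In lists cut to equal length, the Ifngr2 start lay in a region called as held only by MPPs. Csf3r, Il21r and Lifr were chosen after their values were seen, as starts that MPP lists held more often. The Lifr start shown is a transcript start inside the annotated gene, away from its 5′ end. Capitals mark matches to any of 11 short motifs on either strand.
Ifngr1 (chr10:19591699-19591948, plus strand): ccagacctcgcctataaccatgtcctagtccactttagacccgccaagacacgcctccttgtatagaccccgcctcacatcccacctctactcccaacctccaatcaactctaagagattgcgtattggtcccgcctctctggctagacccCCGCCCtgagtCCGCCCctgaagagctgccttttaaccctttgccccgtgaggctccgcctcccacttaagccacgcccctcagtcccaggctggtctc
Ifnar1 (chr16:91484965-91485214, plus strand): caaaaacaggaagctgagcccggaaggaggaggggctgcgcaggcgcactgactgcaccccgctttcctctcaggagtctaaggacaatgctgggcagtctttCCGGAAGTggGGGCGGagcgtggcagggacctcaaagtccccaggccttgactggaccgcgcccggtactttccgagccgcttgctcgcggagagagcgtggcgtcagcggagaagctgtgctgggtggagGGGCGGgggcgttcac
Il12rb2 (chr6:67376189-67376438, minus strand): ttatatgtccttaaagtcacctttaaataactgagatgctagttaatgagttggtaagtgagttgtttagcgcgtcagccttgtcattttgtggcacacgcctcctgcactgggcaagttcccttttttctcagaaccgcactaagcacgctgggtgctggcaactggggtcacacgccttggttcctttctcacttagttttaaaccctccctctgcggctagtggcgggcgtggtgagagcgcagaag
Csf3r (chr4:126024409-126024658, plus strand): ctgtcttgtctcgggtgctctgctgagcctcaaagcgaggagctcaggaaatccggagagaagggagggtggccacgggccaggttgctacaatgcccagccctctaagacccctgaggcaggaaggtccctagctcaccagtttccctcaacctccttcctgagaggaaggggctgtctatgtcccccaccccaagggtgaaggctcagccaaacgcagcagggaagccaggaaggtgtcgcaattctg
Il21r (chr7:125603179-125603428, plus strand): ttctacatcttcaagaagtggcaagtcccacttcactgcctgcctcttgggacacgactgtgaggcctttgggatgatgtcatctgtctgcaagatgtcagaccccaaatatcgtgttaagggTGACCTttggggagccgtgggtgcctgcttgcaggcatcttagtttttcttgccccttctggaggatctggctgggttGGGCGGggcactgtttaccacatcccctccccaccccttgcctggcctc
Lifr (chr15:7129322-7129571, plus strand): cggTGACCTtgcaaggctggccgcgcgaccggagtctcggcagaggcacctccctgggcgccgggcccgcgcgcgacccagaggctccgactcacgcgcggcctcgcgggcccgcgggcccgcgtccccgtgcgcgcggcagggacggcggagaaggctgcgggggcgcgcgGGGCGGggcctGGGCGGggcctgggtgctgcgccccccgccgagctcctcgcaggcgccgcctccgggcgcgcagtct

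The motifs searched were the ETS types GAGGAAGT and CCGGAAGT, which share GGAAGT, the RUNX type TGTGGTT, the GATA type AGATAA, the core of the interferon-stimulated response element, the STAT type TTCCNGGAA, the nuclear receptor half-site AGGTCA, the E-box CACGTG, the AP-1 type TGANTCA, the GC box GGGCGG and the C/EBP type TTGCNNAA. The half-site AGGTCA belongs to the class of nuclear receptors that includes the retinoid X receptors. It was found in 4 of 40 windows before receptor starts, 1 each of Il21r, Lifr, Il1rl1 and Il23r, and in 14.1% of 31365 windows of all genes. The GC box GGGCGG was found in 15 of the 40 windows and in 33% of all. In Ifngr1 the capitals are its reverse complement, and in Ifnar1 they also hold the ETS type CCGGAAGT, present in 2.92% of all windows. Lifr and Il21r each hold the reverse complement of AGGTCA and GGGCGG. No motif of the list was found in the windows of Csf3r and Il12rb2. A match describes letters only, and binding was not measured.

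At gene starts, 14 of 31 receptor regions (45.2%) were held by all 9 libraries, against 55.1% of all regions at starts. Counting for each gene its most widely held window, the starts of 12 of the 33 genes lay in regions that all 9 libraries held: Il1r1, Il1rap, Il4ra, Il15ra, Il6ra, Il6st, Il11ra1, Il12rb2, Ifngr1, Ifnar1, Ifnar2 and Il17rb. The start of Il17rb is in a region assigned to its neighbour Chdh, and no other analysed region was assigned to Il17rb. Another 13 starts were held by at least 1 library of each cell type but not by all 9. For 7 genes, Il1rl1, Il2ra, Il23r, Il5ra, Il17rc, Il20rb and Il9r, the windows lay in no analysed region.

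The Csf3r start, the G-CSF receptor's promoter, was held by LT-HSC KO 4 and WT 2 and by all 4 MPP lists. Its percentile within a list, where 100 is the strongest peak by −log10 q, was 40.4 and 11.7 in those LT-HSC lists and 63.3 to 76.0 in MPPs. A percentile depends on how many weaker peaks its list holds, so values from lists of unlike length are not directly comparable. Among LT-HSC lists the Il21r start was held by KO 4 alone, at percentile 15.9. All 4 MPP lists held it at 72.7 to 80.3. The start of Il7r, the IL-7 receptor chain used by lymphoid precursors, was held by LT-HSC KO 2 at percentile 48.0 and by the 4 MPP lists at 75.1 to 79.4. The Lifr start was held by 0 LT-HSC lists and by 3 of 4 MPP lists, all but MPP WT 1. This Lifr window lies well inside the annotated gene, which begins at chr15:7090610. Nearer to that end, a region 1.62 kb outside the gene was held by 4 LT-HSC and 2 MPP lists. A region just inside it (chr15:7092257-7092820) was held by 4 LT-HSC and 4 MPP lists. None of the 4 starts of Csf3r, Il21r, Il7r and Lifr separated the cell types completely, and none was called.

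By contrast the Ifngr1 start ranked between percentiles 86.2 and 99.2 in the 5 LT-HSC lists and between 99.1 and 99.6 in the 4 MPP lists. The Ifnar1 start ranked between 88.8 and 98.5 in LT-HSCs and between 98.9 and 99.5 in MPPs. Both starts ranked high in every list, with LT-HSC KO 1, the shortest list, lowest. These within-list percentiles carry the limit of unlike list lengths given above, as do those that follow in this paragraph. The start of Ifnar2, also held by all 9, ranged from 39.8 to 87.7 in LT-HSCs and from 82.7 to 87.8 in MPPs. The Ifngr2 start was absent from LT-HSC KO 1 and WT 3, at 33.6 to 56.4 in the other LT-HSC lists and at 90.5 to 94.9 in MPPs, so the 4 interferon receptor genes differed at their starts. The Il6st start, the promoter of gp130, lay between 83.3 and 93.1 in LT-HSCs and between 94.0 and 94.7 in MPPs.

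The question asked first of the receptor regions was how presence differed between stem cells and progenitors. LT-HSC KO 1, KO 2 and KO 4 held 15.1%, 33.4% and 61.1% of the 311 regions, and LT-HSC WT 2 and WT 3 held 46.9% and 20.6%. MPP KO 1 and KO 2 held 82.6% and 91%, and MPP WT 1 and WT 2 held 87.1% and 83.3%. Every MPP list therefore held more receptor regions than every LT-HSC list, and within each cell type the KO and WT values overlapped. The mean was 35.4% ± 18.9 (SD, n = 5) in LT-HSCs and 86% ± 3.87 (SD, n = 4) in MPPs, a difference of -50.6 percentage points. Over all 95786 regions the means were 40.5% ± 18.3 and 81.5% ± 3.01, a difference of -41 points. This comparison of lists carries no test.

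**Figure D1:**
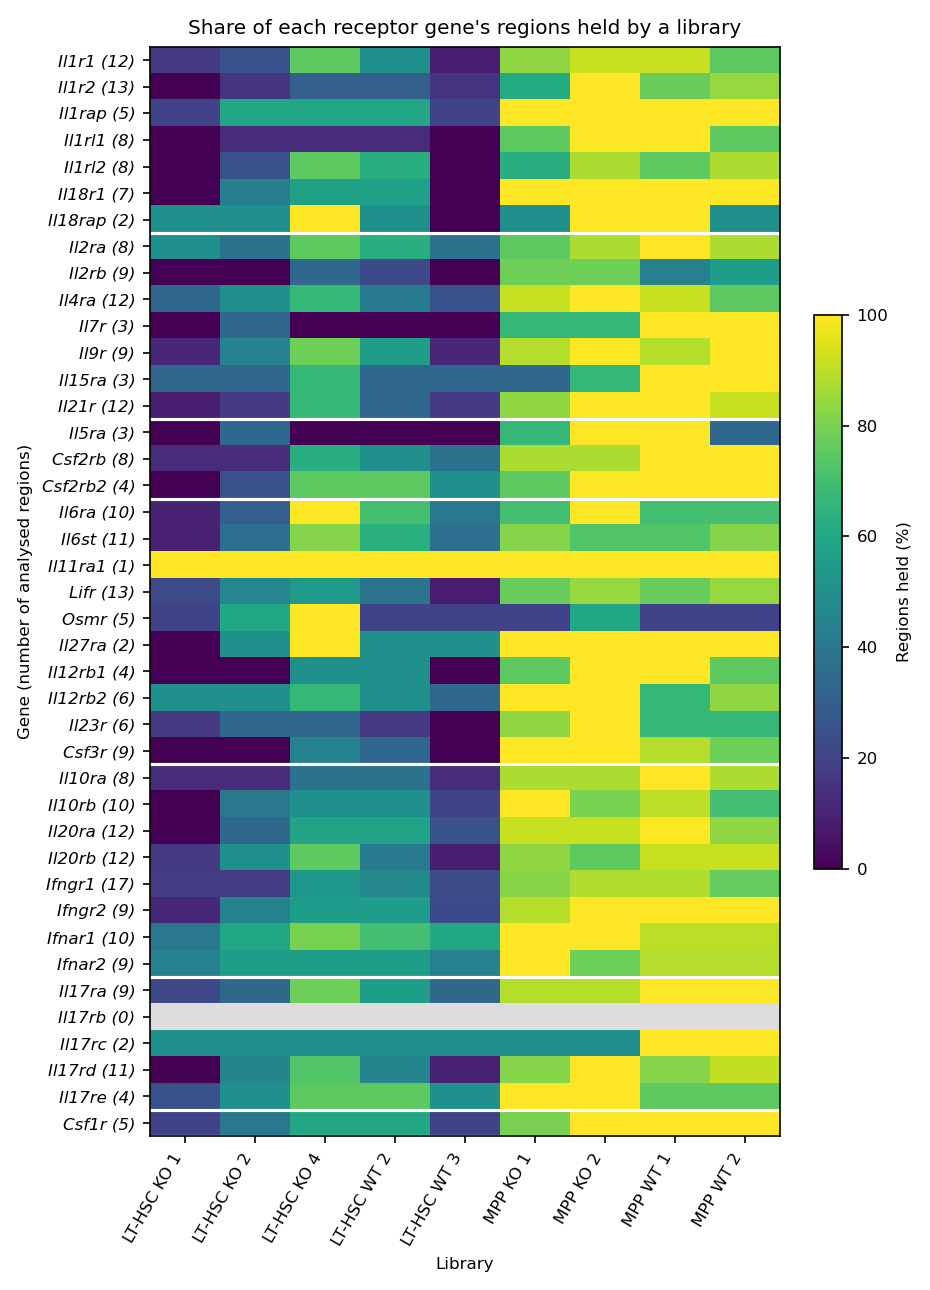
Share of each gene's analysed regions that a library held, in percent, for the 41 receptor genes (rows, grouped by receptor family, number of regions in brackets) and the 9 libraries (columns). Il17rb has 0 regions and is grey. MPP columns are bright for most genes, LT-HSC KO 1 and WT 3 are dark, and Osmr is an exception with 30% held on average in MPPs and 44% in LT-HSCs.

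Complete separation, a peak in all 4 MPP lists and in 0 of 5 LT-HSC lists, was seen at 67 receptor regions of 29 genes. This was the pattern in that direction that the two-sided Fisher's exact test could call after Benjamini-Hochberg adjustment over all 52020 tested regions (p = 0.00794, adjusted p = 0.0245). The 67 were 36.8% of the 182 receptor regions tested, against 31.9 percent of all tested regions. No receptor region was held by all LT-HSC and by 0 MPP lists, where the background was 0.442 percent. At an unadjusted p under 0.05, 116 receptor regions (63.7% of those tested) were held more often by MPPs and 0 more often by LT-HSCs, against 58.3% and 2.26% of all tested regions. A further 35 regions, 11.3% of the 311 against 14.5% over all regions, were held by all 9 libraries.

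Of the 67 separated regions, 64 (95.5%) were more than 1 kb from a gene end, close to the 93.9% of all 16604 separated regions. None was at a RefSeq start window, where 10 receptor regions were tested, and 19.8% of all tested regions at start windows were separated. Of the 67, 2 (2.99%) were among the 22690 strongest peaks of every MPP list, which is the length of the shortest list, against 6.14% of all separated regions. These were a region inside Il10rb, the shared second chain of the IL-10, IL-22 and interferon lambda receptors (chr16:91412909-91413415), and a region inside Il1r1, the signalling IL-1 receptor (chr1:40294752-40295487). Percentiles of the Il10rb region were 77.3 and 81.2 in KO and 77.7 and 76.4 in WT MPP lists, and those of the Il1r1 region were 77.8, 76.1, 85.9 and 82.1 in the same order.

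Because list length moved with cell type, presence was also read from the 22690 strongest peaks of each list. Then 108 receptor regions were analysed, 10 were held by all MPP and 0 LT-HSC lists, and 2 showed the opposite pattern. The 10 were 21.3% of the receptor regions tested against 21.1 percent of all regions, and the background for the opposite pattern was 10.9 percent. The 10 lay at Il1r1, Il17ra and Il10rb (2 each), and at Il1rl2, Il6ra, Il1rap and Ifngr2. The Ifngr2 region (chr16:91546377-91547175) holds the start window of that gene. Of the 10, the Il10rb and Il1r1 regions given above were also separated in full lists, while LT-HSC lists held the others there. No separated region of Ifngr1, Il1rl1, Csf3r, Il18r1, Il21r or Il4ra, described below, was called at equal length. The 2 held by LT-HSCs were inside Il12rb2, a chain of the IL-12 receptor (chr6:67318541-67318882), and 65.9 kb outside Il20rb, a chain of the IL-20 and IL-24 receptors (chr9:100391539-100392147). The share held then differed by -20.2 points between cell types. Without LT-HSC KO 4, the longest LT-HSC list, 92 receptor regions were separated in full lists, 94.8% of those tested against 89.5 percent of all regions, and 0 showed the opposite pattern (background 0.896 percent).

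Among the IL-1 and IL-18 receptors, 15 of 35 tested regions (42.9%) were separated, in 6 of the 7 genes. Il1rl1 encodes ST2, the receptor for IL-33, and all 5 of its 8 regions that could be tested were separated. LT-HSC lists KO 1, KO 2, KO 4, WT 2 and WT 3 held 0, 1, 1, 1 and 0 of the 8, and the MPP lists held 6, 8, 8 and 6. The strongest separated one lay 13.3 kb outside the gene (chr1:40391366-40391789) at percentiles 69.4, 69.7, 65.5 and 73.3 in MPP KO 1, KO 2, WT 1 and WT 2. Another lay 0.093 kb from the annotated 5′ end (chr1:40404499-40405043) at percentiles 55.0, 63.7, 65.4 and 68.0, while the RefSeq start windows used here lie further inside the gene. Il1rl1 was thus nearly without peaks in every LT-HSC list, also in the longest one.

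Il18r1, the ligand-binding IL-18 receptor chain, had 7 regions, all held by every MPP list, and 3 were separated. The LT-HSC lists held 0, 3, 4, 4 and 0 of them. Il1r2, the decoy receptor that binds IL-1 without signalling, had 3 separated regions of 13, the strongest 3.46 kb outside the gene (chr1:40081038-40081426). Il1r1 had 2 of 12, the accessory chain Il1rap 1 of 5, Il1rl2 (an IL-36 receptor chain) 1 of 8 and Il18rap, the IL-18 accessory chain, 0 of 2. The 6 genes of this family other than Il1rap lie side by side on chromosome 1, and 14 of the 32 tested regions in this cluster (43.8%) were separated.

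**Figure D2:**
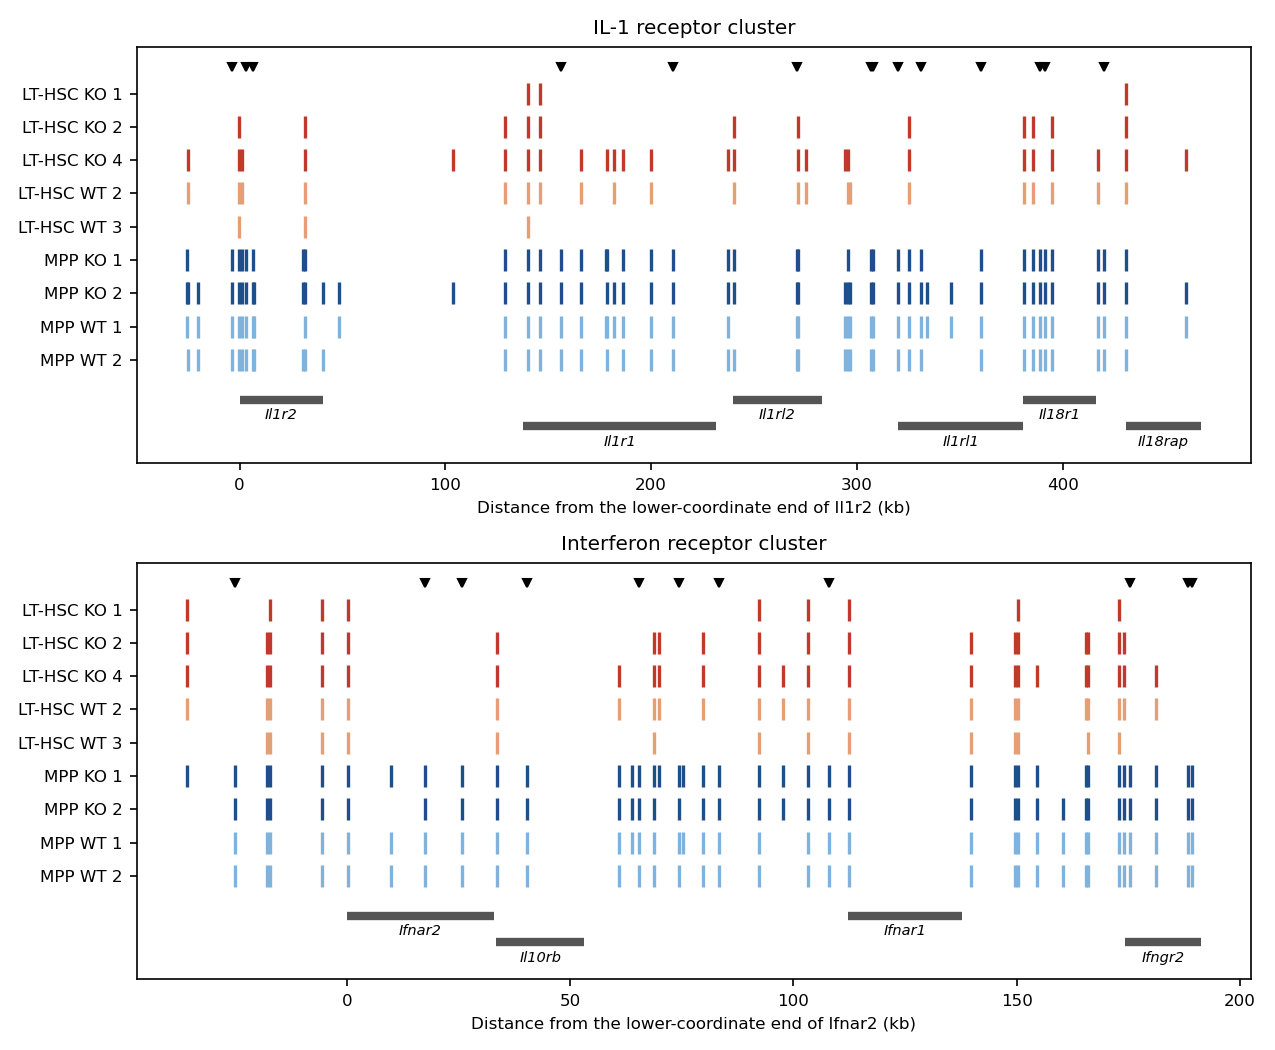
Positions of regions (ticks) held by each of the 9 libraries along the IL-1 receptor cluster of chromosome 1 and the interferon receptor cluster of chromosome 16, in kb from the lower-coordinate end of Il1r2 and of Ifnar2. Black triangles mark the 14 and 11 regions held by all 4 MPP and 0 LT-HSC lists, and grey bars are the genes.

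Class II receptors, which bind interferons and the IL-10 family, had 22 separated regions of 51 tested (43.1%), in all 8 genes. Ifngr1, the ligand-binding chain for interferon gamma, had most. Its 17 regions all lay outside the gene, and the LT-HSC lists KO 1, KO 2, KO 4, WT 2 and WT 3 held 3, 3, 9, 8 and 4 of them against 14, 15, 15 and 13 in the MPP lists. Of these regions 5 were separated, between 8.77 and 85.8 kb upstream of the gene, while the start was open in every list. The strongest was 29.1 kb upstream (chr10:19562581-19563025), at percentiles 71.1 and 72.2 in KO and 80.6 and 77.2 in WT MPPs. The start of Ifngr1 and its 5 separated regions thus differed in presence, but its other distal regions were mixed. A region 3.28 kb outside was held by all 9 libraries, and one 9.54 kb outside by 5 LT-HSC and 2 MPP lists. Over the whole series, 55.1% of regions at starts and 8.84% of those over 1 kb from a gene end were held by all 9.

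Il20ra, the other IL-20 receptor chain, lies next to Ifngr1 and had 3 separated regions of 12. Ifngr2, the second interferon gamma receptor chain, had 3 of 9, all inside the gene. Ifnar2 and Ifnar1, the type I interferon receptor chains, had 3 of 9 and 2 of 10. Il10rb had 3 of 10, Il10ra, the ligand-binding IL-10 receptor chain, 2 of 8, and Il20rb 1 of 12. Ifnar2, Il10rb, Ifnar1 and Ifngr2 form a cluster on chromosome 16, where 11 of 20 tested regions (55%) were separated and 8 of 38 regions were held by all 9 libraries. Within both clusters a region was given to a gene by position, and which of the neighbouring genes it acts on was not measured. In the 30 other genes with regions, 42 of 130 tested regions (32.3%) were separated.

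Receptors of the gp130, IL-12 and G-CSF group had 11 separated regions of 36 tested (30.6%), in 4 of 10 genes. Csf3r, which drives granulocyte production, accounted for 4. All 9 Csf3r regions were tested, and LT-HSC KO 1, KO 2 and WT 3 held 0 of them, KO 4 held 4 and WT 2 held 3. The MPP lists held 9, 9, 8 and 7. The strongest separated region lay 4.31 kb outside the gene (chr4:126018880-126019377) at percentiles 62.0 and 73.0 in KO and 77.3 and 74.3 in WT. The number of Csf3r regions held did not overlap between the cell types, and neither did the share of all analysed regions held. That share was 22.7% to 65.5% in LT-HSC lists and 78.1% to 84.7% in MPP lists.

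Lifr, the leukaemia inhibitory factor receptor, had 3 separated regions of 13 and Il23r, the IL-23 receptor, 3 of 6, all with list percentiles under 40 in MPPs. Il12rb1, shared by the IL-12 and IL-23 receptors, had 1 of 4. Il6ra, Il6st, Il11ra1, Il12rb2, Il27ra and Osmr had 0. The single Il11ra1 region was held by all 9 libraries. Osmr, the oncostatin M receptor chain, was the 1 gene among the 40 with a higher mean share in LT-HSCs, 44% against 30% of its 5 regions. LT-HSC lists held 1, 3, 5, 1 and 1 of them and MPP lists 1, 3, 1 and 1, so the groups overlapped, and no Osmr region was held by 3 to 6 libraries, so none was tested.

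Receptors with the common gamma chain had 12 separated regions of 34 tested (35.3%), in 6 of 7 genes. Il21r, the IL-21 receptor, had 3 of 12 and its LT-HSC lists held 1, 2, 8, 4 and 2 regions against 10, 12, 12 and 11 in MPPs. Il4ra, the IL-4 and IL-13 receptor chain, had 3 of 12, with 4, 6, 8, 5 and 3 regions in LT-HSCs and 11, 12, 11 and 9 in MPPs. Il21r and Il4ra are neighbours on chromosome 7. Il2rb, the IL-2 and IL-15 receptor chain, had 2 of 9, Il9r 2 of 9, Il2ra, the private IL-2 receptor chain, 1 of 8 and Il7r 1 of 3. Il15ra, which presents IL-15, had 0 of 3.

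The remaining groups were smaller. Il17ra, the chain shared by IL-17 receptors, and Il17rd had 2 separated regions each, Il17re had 1 and Il17rc 0, together 5 of 14 tested (35.7%). Csf2rb, the common beta chain of the IL-3, IL-5 and GM-CSF receptors, had 1, and its near-identical paralogue Csf2rb2 and Il5ra had 0, together 1 of 9 (11.1%). Reads shared by Csf2rb and Csf2rb2 may have been split by mapping, so their values are uncertain. Csf1r, the M-CSF receptor of the monocyte lineage, had 1 of 5.

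A higher share of LT-HSC than of MPP lists was seen at 16 receptor regions (5.14%, against 10.7% of all regions), and none was called. They lay at Osmr, Il6st, Ifngr1 and Il6ra (2 each) and at Ifnar2, Lifr, Il10rb, Il20rb, Il2rb, Il4ra, Il23r and Il1rl2.

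Other genes of these pathways were counted in the same way. Related receptors outside the 41 had 16 separated regions of 57 tested (28.1%), led by Kit, the stem cell factor receptor, with 4, and Flt3 and Prlr with 2 each. Genes for the ligands had 24 of 70 (34.3%), led by Csf1 with 5, and 1 region of Ifnb1, interferon beta, was held by all LT-HSC and by 0 MPP lists. Signalling genes had 42 of 112 (37.5%), led by Ptpn11, a phosphatase, with 6, and Irak2 with 5. The receptor share of 36.8% lay among these values.

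Markers of mature myeloid cells moved the same way. Of their 23 regions 18 were tested and 11 were separated (61.1%), and LT-HSC lists held 2 to 9 of the 23 against 19 to 22 in MPP lists. Ly6g, Cd79a, Cd3g, Cd8a and Hba-a1 had 0 regions, Ms4a1 had 1 separated region, and Cd3e had 2 of 2. Of the LT-HSC markers 6 of 48 tested regions (12.5%) were separated toward MPPs, and 1, at Slamf1, was held only by LT-HSCs. MPP markers had 11 of 31 (35.5%) separated toward MPPs, stromal and endothelial markers 4 of 13 (30.8%) and mature erythroid markers 0 of 4. The share of all tested regions was 31.9%. The part of mature cells in the receptor result was not tested.

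The second measure was strength. Regions held by all 9 libraries were ranked within each library by their best −log10 q, ranks were turned into normal scores, and limma compared cell types with adjustment over all 13908 such regions. Of the receptor regions 35, in 23 genes, could be compared. In MPPs 7 ranked higher, against 14.9 percent of all regions, and in LT-HSCs 3 ranked higher, against 15.3 percent (30.2 percent in either direction). The median difference of the 35 was 0.06 normal score units, MPP minus LT-HSC, and that of all regions 0.05. Percentiles in this comparison of cell types are within these 13908 regions.

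Il17ra region 6, numbered along the chromosome within its gene and lying inside it (chr6:120473404-120473996), had percentiles of 12.9, 21.2, 0.3, 1.2 and 23.0 in LT-HSC KO 1, KO 2, KO 4, WT 2 and WT 3, and 88.6, 90.9, 91.2 and 88.2 in MPP KO 1, KO 2, WT 1 and WT 2. Among the shared regions it lay at or below percentile 23.0 in every LT-HSC list and at or above 88.2 in every MPP list. The difference was 2.79 ± 0.42 (SE) with a limma adjusted p of 0.00111. Il2ra region 2, 5.49 kb outside the gene (chr2:11637016-11637588), had percentiles of 10, 9.5, 0.7, 5.4 and 6.4 in LT-HSCs and 82.9, 75.1, 83.1 and 84.2 in MPPs. Its difference was 2.53 ± 0.27 (SE, limma adjusted p = 0.000241), and the groups did not overlap.

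At the interferon receptors, Ifnar2 region 4, 17.4 kb outside the gene (chr16:91355127-91355662), lay at percentiles 24.0, 2.0, 28.6, 7.5 and 25.1 in LT-HSCs and 92.1, 83.9, 89.2 and 85.2 in MPPs. Its difference was 2.25 ± 0.32 (SE, limma adjusted p = 0.000916). Ifnar1 region 4, 9.06 kb outside, lay at 0.7 to 24.8 in LT-HSCs and 51.1 to 63.2 in MPPs (difference 1.25, limma adjusted p = 0.0174). Both sets of values were apart, while leaving out LT-HSC WT 2, WT 3 or any 1 MPP library took the Ifnar1 call to adjusted p values of 0.052 to 0.0917.

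Smaller differences toward MPPs were found at Lifr region 4 (1.3, limma adjusted p = 0.000773), Il2ra region 6 (0.96, limma adjusted p = 0.00637) and Ifnar2 region 5 (0.73, limma adjusted p = 0.0055). Ifnar2 region 5 had percentiles of 44.3 to 51.2 in LT-HSCs and 71.7 to 77.2 in MPPs. Its direction turned, to -0.09 with a limma adjusted p of 0.755, when fold enrichment in place of −log10 q was ranked.

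Toward LT-HSCs, Il20rb region 3 (chr9:100391539-100392147) had percentiles of 56.6, 63.7, 77.7, 49.0 and 38.3 in LT-HSCs and 2.5, 3.9, 5.4 and 2.5 in MPPs. Its difference was -1.95 ± 0.22 (SE, limma adjusted p = 0.000268), and it lies 65.9 kb from Il20rb, so the gene it serves is uncertain. Il4ra region 8, inside the gene (chr7:125575721-125576138), had 34.4 to 53.0 in LT-HSCs and 7.9 to 17.5 in MPPs (difference -1.08, limma adjusted p = 0.00283). Il12rb2 region 3, inside the gene (chr6:67318541-67318882), had 6.5 to 51.7 in LT-HSCs and 4.6 to 6.0 in MPPs (difference -0.96, limma adjusted p = 0.0259). The Il12rb2 call was lost, at limma adjusted p values of 0.055 to 0.113, without LT-HSC WT 3 or any 1 MPP library. The Il20rb and Il12rb2 regions are also the 2 that LT-HSCs alone held when lists had equal length. That cut uses the same −log10 q values, so it is not separate evidence.

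**Figure D3:**
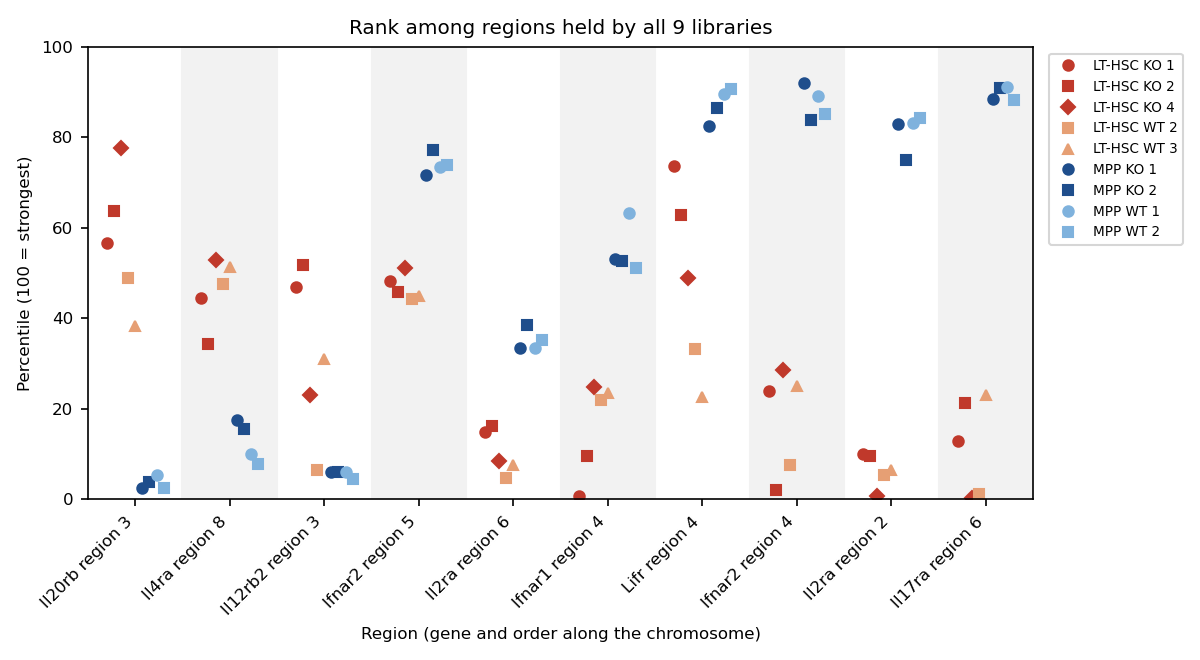
Percentile (100 = strongest) of the 10 receptor regions whose rank differed between cell types, in each of the 9 libraries, among the 13908 regions that all libraries held. Red and orange points are LT-HSC KO and WT, dark and light blue points are MPP KO and WT. In the 3 regions at the left MPP points lie low, and in the 7 at the right they lie high.

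Without LT-HSC KO 4, 14 receptor regions ranked higher in MPPs (background 27.5 percent) and 4 in LT-HSCs (background 24.7 percent). With all 9 libraries the backgrounds were 14.9 percent higher in MPPs and 15.3 percent higher in LT-HSCs. In that comparison, over 21 shared regions of the related receptors, 3 ranked higher in MPPs and 4 in LT-HSCs. The signalling genes there had 4 and 6 of 33, and the ligand genes 3 and 2 of 10.

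The study's own question was what loss of both retinoid X receptors changed. By presence, tested with a stratified exact test within cell types, 0 of 9 testable receptor regions differed between KO and WT, against a background of 0 percent called among 1565 regions. Full separation of the genotypes gives p = 0.0167 in this exact test, and the smallest adjusted p over the 1565 regions was 0.669, so a count of 0 does not show that the genotypes were alike. The smallest unadjusted p of a receptor region was 0.233 in this exact test, and 0 receptor regions had an unadjusted p under 0.05, against 2.49 percent of all tested regions (2.36 percent higher and 0.128 percent lower in KO).

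By rank within MPPs, over the 219 receptor regions held by all 4 MPP lists, 6 ranked higher in KO (background 1.91 percent) and 4 lower (background 1.9 percent, 3.81 percent in either direction) in limma with adjustment over 64003 regions. Unadjusted, 26 ranked higher and 20 lower at p under 0.05, together 21% of the receptor regions against 18% of all regions, and the median difference was 0.00 for the receptor regions and for all regions. The calls were lost in large part under other settings. With fold enrichment ranked, or with limma fitted without a variance trend, 0 receptor regions were called in either direction. On the percentile scale 0 were higher and 1 lower, and with any 1 library left out 1 to 2 were higher and 0 to 5 lower. The values that follow are read with that limit. Their percentiles are within the 64003 regions held by all 4 MPP lists, so they differ from those given for cell types.

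Il1r1 region 11, inside the gene (chr1:40284067-40284919), had percentiles of 28.3 and 27.9 in MPP KO 1 and KO 2 and 0.8 and 2.3 in WT 1 and WT 2. Its KO minus WT difference was 1.62 ± 0.48 (SE, limma adjusted p = 0.0461), and the values were near the bottom of both WT lists. Il12rb2 region 4, also inside its gene, had 63.5 and 65.8 in KO and 42.6 and 41 in WT (0.58, limma adjusted p = 0.0282). Il4ra region 8 had 69.1 and 66.9 in KO and 50.1 and 44.2 in WT (0.54, limma adjusted p = 0.0247). Among regions shared by all libraries this same Il4ra region ranked higher in LT-HSCs.

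Il9r region 8, inside the gene of the IL-9 receptor, had 77.9 and 79.2 in KO and 66.6 and 63.4 in WT (0.41, limma adjusted p = 0.0204). Ifngr2 region 4, 1.36 kb outside the gene, had 82.4 and 81.3 in KO and 69.1 and 73.8 in WT (0.34, limma adjusted p = 0.036). Il21r region 11 had 98.1 and 97.2 in KO and 95.7 and 95.1 in WT (0.30, limma adjusted p = 0.0308). The Il21r region was among the strongest peaks of MPPs in both genotypes, and its difference was the smallest of the 6.

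Lower in KO was Il1rl1 region 5, inside the ST2 gene (chr1:40415552-40415901), one of its 5 regions held by all 4 MPP and 0 LT-HSC lists. It had percentiles of 4.0 and 3.7 in KO and 35.2 and 43.8 in WT, a difference of -1.51 ± 0.40 (SE, limma adjusted p = 0.0258). Il2ra region 5, inside the gene, had 26.2 and 23.9 in KO and 59.6 and 50.2 in WT (-0.80, limma adjusted p = 0.0377). Il17ra region 5 had 32.2 and 34.1 in KO and 62.0 and 59.9 in WT (-0.71, limma adjusted p = 0.0221). These 3 regions were all held by 4 MPP and 0 LT-HSC lists.

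Csf3r region 1, 60.6 kb outside the gene, had 22.5 and 49.7 in KO and 63.1 and 63.6 in WT (-0.72, limma adjusted p = 0.0259). Its KO values were far apart, and without MPP KO 1 the difference was -0.33 (limma adjusted p = 0.313). The 6 and the 4 regions each come from different genes, and no receptor gene had 2 called regions.

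**Figure D4:**
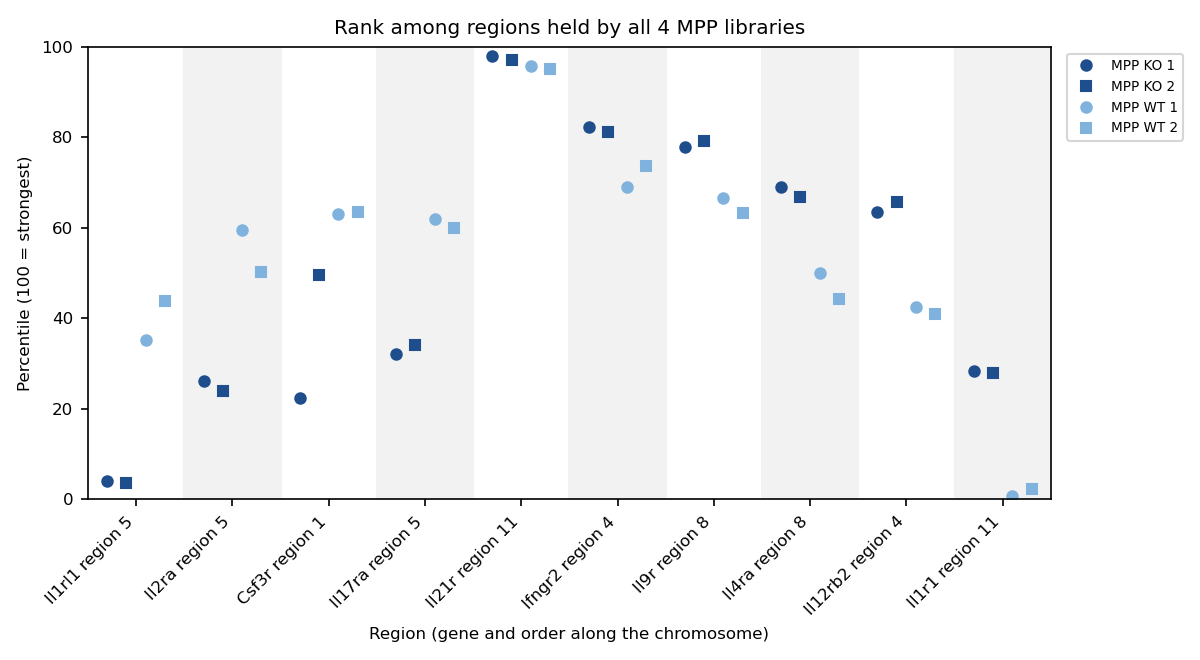
Percentile (100 = strongest) of the 10 receptor regions whose rank differed by genotype in MPPs, in the 2 KO (dark blue) and 2 WT (light blue) libraries, among the 64003 regions that all 4 held. In the 4 regions at the left KO points lie below WT points, and in the 6 at the right above them.

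Within LT-HSCs, 36 receptor regions were held by all 5 lists. Percentiles in this comparison are within the 14498 regions that all 5 lists held. With all 5 libraries limma called 0 receptor regions and 0 percent of the 14498 regions compared. Unadjusted, 2 receptor regions ranked higher and 1 lower in KO at p under 0.05, together 8.33% against 13.7% of all regions. The 4 regions with the smallest unadjusted p were Il12rb2 region 6, Lifr region 4, Ifnar1 region 6 and Osmr region 5, with limma adjusted p values of 0.319, 0.348, 0.355 and 0.39. Without LT-HSC KO 4, 2 receptor regions ranked higher (background 16 percent) and 5 lower (background 15.5 percent), from 2 KO and 2 WT libraries. KO 4 was set apart by these same ranks, where it lay nearer to the WT lists. Leaving it out raised the calls over all regions from 0 to 31.5 percent. The adjusted p values without it depend on that choice and are not a fair test of genotype.

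The start of Il12rb2 (region 6, chr6:67375762-67376482) had percentiles of 67.9 and 78.5 in LT-HSC KO 1 and KO 2, 29.5 in KO 4, and 20.1 and 4.6 in WT 2 and WT 3. KO 4 lay between the other KO lists and the WT lists. The KO minus WT difference was 1.5 ± 0.49 (SE) with KO 4 and 1.89 ± 0.38 (SE, limma adjusted p = 0.00136) without it. The start of Ifnar1 (region 6, chr16:91484810-91485506) had 83.3 and 80.1 in KO 1 and KO 2, 92.3 in KO 4, and 94.7 and 97.7 in WT. The difference was -0.72 with KO 4 and -0.89 ± 0.22 (SE, limma adjusted p = 0.00483) without it.

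The start of Ifngr1 (region 16, chr10:19591349-19592361) moved the same way as that of Ifnar1, with 79.8 and 82.7 in KO 1 and KO 2, 95.8 in KO 4, and 97.4 and 94.8 in WT (-0.90, limma adjusted p = 0.00446, without KO 4). Il10ra region 6, 5.36 kb outside its gene, had 45.5 and 68.2, then 96.7 in KO 4, and 90.9 and 88.8 in WT (-1.09, limma adjusted p = 0.00369, without KO 4). In both, KO 4 lay within or above the WT values.

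Csf1r region 4, inside the gene, had 2.8 and 41.5, 77.6 in KO 4, and 61.3 and 66.6 in WT (-1.42, limma adjusted p = 0.0229, without KO 4). Il17ra region 3, inside the gene, had 49.5 and 28.1, 81.9 in KO 4, and 80.5 and 62.0 in WT (-0.88, limma adjusted p = 0.0413, without KO 4). Lifr region 4, 5.37 kb outside, had 74 and 63.3, 49.8 in KO 4, and 34.6 and 24.4 in WT (1.04, limma adjusted p = 0.0189, without KO 4). At 5 of these 7 regions, all but those of Il12rb2 and Lifr, KO 4 lay within 5 percentiles of a WT list or above both.

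**Figure D5:**
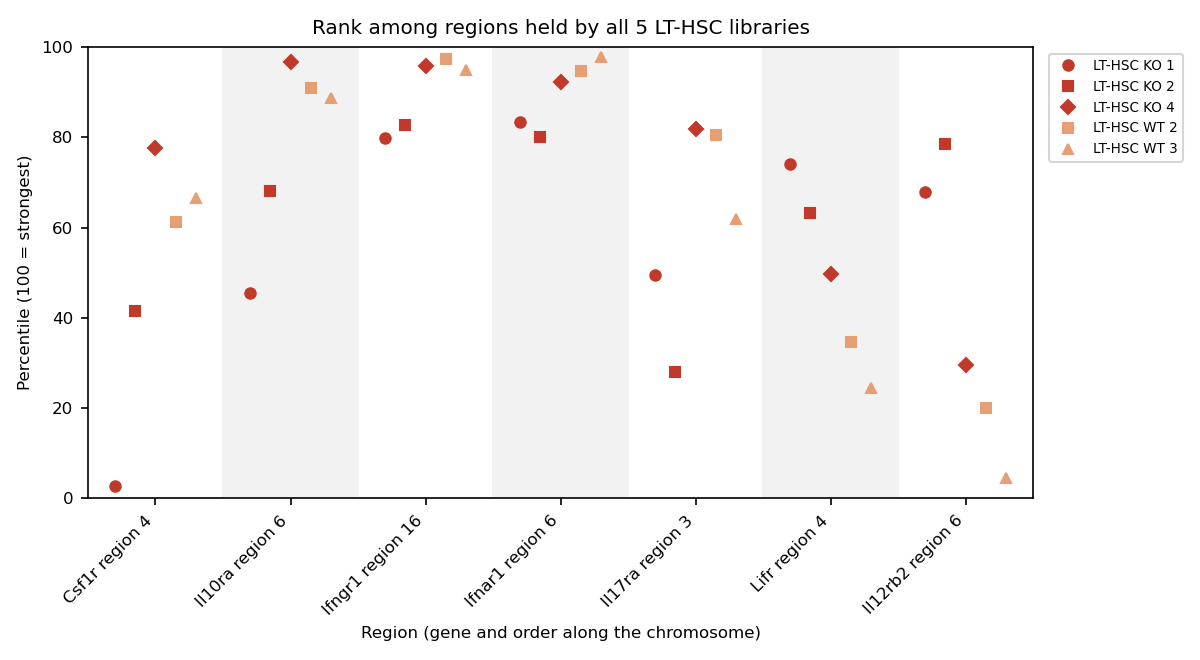
Percentile (100 = strongest) of the 7 receptor regions whose rank differed by genotype in LT-HSCs once LT-HSC KO 4 was left out, in all 5 LT-HSC libraries. Percentiles are among the 14498 regions that all 5 held. Red points are KO, with KO 4 as diamonds, and orange points are WT. Diamonds lie near the orange points in most regions and between the groups for Il12rb2 and Lifr.

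Whether the KO difference itself varied between cell types was tested as an interaction over the 13908 shared regions. With all libraries 0 of 35 receptor regions were called (background 0 percent), and 0 and 2 had an unadjusted p under 0.05 toward a higher and a lower KO effect in MPPs, together 5.71% against 8.37% of all regions. Without LT-HSC KO 4, 5 were called (background 27.8 percent), with the same limit on leaving it out. The KO effect was higher in MPPs at Ifngr1 region 16, Il10ra region 6 and Il17ra region 3. It was lower in MPPs at Lifr region 4 and Il12rb2 region 6. Among the 13908 shared regions, the Il12rb2 start in MPPs had percentiles of 42.5 and 42.9 in KO and 41.7 and 50.1 in WT, which overlap. The Ifngr1 start there had 98.0 and 97.8 in KO and 96.9 and 94.7 in WT.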

How the data were processed

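ATAC-seq peaks were analysed in 9 libraries of mouse bone marrow LT-HSCs and MPPs, grouped by cell type and genotype from the labels. The authors deposited 1 narrowPeak list per library. The submitters' processing notes name mm10, MACS2 2.1.1 (a peak caller), HOMER 4.10.3, edgeR 3.20.9, DiffBind 2.6.6, SAMtools 0.1.18, Bowtie2, FastQC and cutadapt 1.7, with no role stated for any. Each deposited peak carries its position and summit, a score for display, its fold enrichment as a ratio, and −log10 values of its p-value and q-value. Whether reads were shifted for Tn5 or duplicates removed is not stated in these sources. Read depth per library is unknown, so no interval for counting error is given. Chromosomes 1 to 19 were covered, and chromosome X was not analysed here.

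Gene bounds came from RefSeq for GRCm38.p6, which has the primary chromosomes of mm10. Presence was tested in regions held by 3 to 6 libraries with two-sided Fisher's exact tests (scipy 1.17.1), and genotype with an exact test stratified by cell type. Ranks were compared with limma 3.58.1 (R 4.3.3, trend on). A call is a Benjamini-Hochberg adjusted p under 0.05 over all regions tested. The tests were tested on simulated data. The receptor genes and the gene lists were chosen with earlier results of these data known. Named genes are the 12 with most regions held only by MPPs, up to 10 per direction with a called rank difference, or the 4 smallest p where none was called, and up to 3 per background list. Alternatives were another merging rule, a stricter −log10 q of 4, equal list lengths, other assignment distances, other rank values and models, a replicate block, and each library left out. One marker gene is not reported here.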

Additional observations from a re-analysis of the deposited data

Results flagged for a closer look

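Among 22 groups of 4 or 5 libraries, taken from the share of receptor regions held and from the percentiles at the 10 regions with a rank difference between cell types, 2 held a library far from the others of its group by Dixon's test, and chance marks about 1 in 20 groups. At Il2ra region 2 the MPP KO 2 library stood low, at percentile 75.1 against 82.9, 83.1 and 84.2 in the other MPP libraries. At Il12rb2 region 3 the MPP WT 2 library stood low, at 4.6 against 6.0 in each of the other MPP libraries, a small gap on the percentile scale.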

How the results depend on the processing

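Receptor regions held only by MPPs numbered 67, 28 when only regions inside a gene counted, 10 at equal list length, and 67 to 92 with each library left out. Of the 67, only the Il10rb and Il1r1 regions among the strongest peaks of every MPP list were among the 10. Over all tested regions the share was 31.9 percent, and 30.9 percent of those inside a gene. It was 21.1 percent at equal list length and 50.5 to 89.5 percent with each library left out. Receptor regions held only by LT-HSCs numbered 0, and 2 at equal list length, against 0.442 and 10.9 percent of all tested regions. At equal length the difference in share held was -20.2 points. It ranged from -58.6 to -45.5 with each library left out. Receptor regions ranked higher in MPPs numbered 7, 14 with library weights and 6 to 14 with each library left out. Those ranked higher in LT-HSCs numbered 3, 5 with fold enrichment ranked, 5 with library weights and 2 to 5 with each library left out. Of all shared regions 30.2 percent were called in either direction, and 32 percent with fold enrichment ranked. This share was 57.7 percent with library weights and 15.4 to 52.2 percent with each library left out. In KO MPPs 6 receptor regions ranked higher and 4 lower. Those numbers were 0 and 0 with fold enrichment ranked, 0 and 1 on the percentile scale, 0 and 0 without the trend, and 1 to 2 and 0 to 5 with each library left out. The share of all regions called was 3.81 percent, 0.139 percent with fold enrichment and 1.45 percent on the percentile scale. It was 0 percent without the trend and 1.71 to 3.16 percent with each library left out. In KO LT-HSCs 0 receptor regions ranked higher and 0 lower, 4 and 6 with library weights, and 0 to 2 and 0 to 5 with each library left out. Among all regions these settings called 0 percent, 38 percent and 0 to 31.5 percent. A genotype effect that differed between cell types was called at 0 receptor regions, at 6 with library weights and at 0 to 5 with each library left out. The shares of all regions there were 0, 32.9 and 0 to 27.8 percent. Library weights gave LT-HSC KO 4 the lowest weight, 0.085 over all libraries and 0.214 within LT-HSCs. Ifnar2 region 5 reversed to -0.09 with fold enrichment ranked. The cause was not tested, other than that equal lengths and regions inside genes leave fewer regions.

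With the replicate block, 5 receptor regions ranked higher in MPPs and 1 in LT-HSCs, and 6 ranked higher and 5 lower in KO MPPs. With this block 22.4 percent of all regions were called by cell type and 4.74 percent by genotype in MPPs. Same-numbered libraries did not deviate together (correlation of replicate differences -0.010 between MPP KO and WT, and 0.023 between LT-HSC and MPP KO). These values showed no sign of pairing by number, but they cannot exclude it. Of the comparisons of these counts and shares with an alternative, 112 stayed within the set limits and 28 moved. Depth is unknown, and an absent peak may be a weak one.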
